A study of Mus musculus with 20 samples.

Results

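The genes described here encode proteins of the angiotensin and kinin system, the paired peptide hormone pathways that control blood vessel tone, salt balance and tissue inflammation. They were 10 genes, chosen by name from the 54304 genes of the deposited table: the precursor genes Agt and Kng1, the peptidase genes Ace, Enpep, Anpep and Mme, and the receptor genes Agtr1a, Agtr2, Bdkrb1 and Bdkrb2. All 10 were found in the table. All 10 also exceeded the filter on low values, Agtr2 through the FIP libraries alone.

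Expression had been measured by sequencing polyadenylated RNA from stromal cells of male mice, sorted out of gonadal white adipose depots. The cells called fibro-inflammatory progenitors (FIPs) were PDGFRβ-positive and LY6C-positive, whereas adipogenic precursor cells (APCs) were PDGFRβ-positive and carried neither LY6C nor CD9. Cells positive for the leukocyte antigen CD45 or the endothelial antigen CD31 had been gated out of both populations. The groups were FIPs of mice labelled Mural-Zfp423 transgenic, FIPs of control mice, APCs of mice labelled Mural-Zfp423 transgenic and APCs of control mice, with 5 libraries each. All mice were listed as 8 weeks of age, lived at 30 °C, and were fed for 1 month on food whose fat supplied 60% of the energy. Each library pooled RNA of 2 mice and 10 mice were used per genotype, so FIP and APC libraries of a genotype must share mice, and the labels do not say which. They also name neither the promoter that drives the transgene nor the strain.

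Angiotensinogen, the product of Agt, is cut by renin and then by angiotensin-converting enzyme (Ace) to angiotensin II, which acts on the AT1 receptor (Agtr1a) to constrict vessels and on the AT2 receptor (Agtr2), often with opposing effects. Aminopeptidases A (Enpep) and N (Anpep) trim angiotensin II step by step, and neprilysin (Mme) forms and degrades shorter peptides. Kininogen (Kng1) is the source of bradykinin, which dilates vessels through the B2 receptor (Bdkrb2), while the B1 receptor (Bdkrb1) responds to shortened kinins and is known to be induced in inflamed tissue. Ace and neprilysin also inactivate bradykinin, so the pathways meet at these enzymes. White fat is a known site of Agt expression.

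The upstream sequences of 5 genes are shown because each of these genes differed between FIPs and APCs in both genotypes with no overlap between libraries, and each has 1 listed start. They run 5′ to 3′ over the 250 bases before the RefSeq start (GRCm38.p6), with TATAAA and CCAAT matches on either strand in capitals. Agt, Enpep and Bdkrb2 were lower in FIPs, and Anpep and Agtr2 were higher. Agtr2 passed the filter on low values through FIPs alone, so its difference is not taken as a test.
Agt (chr8:124569707-124569956, minus strand): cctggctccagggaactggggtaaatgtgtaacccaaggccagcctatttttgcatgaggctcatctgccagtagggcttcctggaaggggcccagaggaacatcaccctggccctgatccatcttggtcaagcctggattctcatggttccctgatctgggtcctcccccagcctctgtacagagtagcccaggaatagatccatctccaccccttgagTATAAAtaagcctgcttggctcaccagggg
Enpep (chr3:129332750-129332999, minus strand): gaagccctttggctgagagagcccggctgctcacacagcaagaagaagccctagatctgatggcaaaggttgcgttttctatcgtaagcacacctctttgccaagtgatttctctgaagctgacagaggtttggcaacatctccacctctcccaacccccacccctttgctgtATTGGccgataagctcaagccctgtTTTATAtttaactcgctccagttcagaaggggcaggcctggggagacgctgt
Bdkrb2 (chr12:105562922-105563171, plus strand): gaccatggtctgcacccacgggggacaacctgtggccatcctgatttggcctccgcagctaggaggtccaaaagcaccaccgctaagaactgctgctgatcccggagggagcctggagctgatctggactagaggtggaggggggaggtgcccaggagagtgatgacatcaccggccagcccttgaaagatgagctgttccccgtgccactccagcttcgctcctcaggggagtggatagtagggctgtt
Anpep (chr7:79848211-79848460, minus strand): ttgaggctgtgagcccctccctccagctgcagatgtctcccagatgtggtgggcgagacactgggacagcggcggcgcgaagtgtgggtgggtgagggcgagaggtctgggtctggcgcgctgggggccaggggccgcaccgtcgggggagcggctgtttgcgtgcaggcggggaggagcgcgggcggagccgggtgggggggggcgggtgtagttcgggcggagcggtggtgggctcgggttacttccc
Agtr2 (chrX:21484374-21484623, plus strand): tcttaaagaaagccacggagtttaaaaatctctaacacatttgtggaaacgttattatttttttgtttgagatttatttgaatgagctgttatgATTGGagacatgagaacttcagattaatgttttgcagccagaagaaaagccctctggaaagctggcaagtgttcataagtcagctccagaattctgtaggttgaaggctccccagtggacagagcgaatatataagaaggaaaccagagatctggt

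Of the 10 genes, 7 had an entry in the RefSeq promoter table, and the 5 shown above are described first. TATAAA was found once upstream of Agt, 30 to 25 bases before the start, and once upstream of Enpep on the reverse strand, 52 to 47 bases before it. It was present in 12.4% of the 32851 listed promoters. CCAAT, present in 33.8% of them, was found on the reverse strand upstream of Enpep and Agtr2. The 250 bases upstream of Bdkrb2 and Anpep held neither. None of these 5 windows held TGANTCA (the AP-1 motif, in 6.75% of promoters), the EBF motif (arms TCCC and GGGA around NN, in 0.779%; EBF factors are partners of ZFP423), an NF-kB motif (GGGA and TTTCC around N, in 0.356%) or AGAACA (a glucocorticoid receptor motif arm, in 16.1%). Both strands were searched, and these motifs did not overlap each other. Ace and Mme, with 2 and 3 listed starts, held matches too. Upstream of Ace, whose FIP and APC libraries overlapped, TATAAA lay on the reverse strand 31 to 26 bases before start 1. CCAAT lay on the reverse strand before start 2 of Ace. Upstream of Mme, which was lower in FIPs, CCAAT lay before starts 2 and 3, and the AP-1 motif lay 215 to 209 bases before start 3. GC content was 72.8% upstream of Anpep and 38.4% upstream of Agtr2, against a median of 52.4% over all listed promoters. In the GENCODE annotation Anpep runs from 79821803 to 79861059 on the minus strand. The Anpep window therefore lies inside the annotated gene, and sequence before its outermost end was not searched. The windows of Mme and the second window of Ace lie inside their annotated genes too. Agtr2 begins at 21484544 on the plus strand, so the last part of its window is also inside the annotated gene.

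Each library held an estimated 6.6 to 8.5 megareads, judged by the step that 1 read makes among low values, so 1 CPM (a read count scaled to depth) stood for 6.6 to 8.5 reads. Values are the deposited log2 CPM, in which 1 CPM or less is listed as 0. Zfp423, the gene named in the transgene, was not raised by label: it averaged 5.53 ± 0.04 log2 CPM in FIPs labelled transgenic and 5.47 ± 0.12 in control FIPs, and 4.70 ± 0.27 in APCs labelled transgenic and 4.97 ± 0.17 in control APCs (SD, n = 5 each; limma adjusted p = 0.933 and 0.108). Genotype directions below therefore rest on the labels alone. The progenitor genes Pdgfrb, Pdgfra, Col1a1, Dcn and Ly6a were abundant in every library. The 6 gate and interstitial progenitor genes were higher in FIPs in both genotypes. Markers of other cells were also present: 12 endothelial genes summed to 581 to 912 CPM and 10 macrophage and leukocyte genes to 189 to 552 CPM over the 20 libraries, with none of either list at 0 throughout a group.

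Levels of different genes were compared per length, as CPM per kilobase of exon. Ace ranked first in each of the 4 groups, at 130 ± 4.4 CPM per kilobase in FIPs labelled transgenic, 131 ± 6.9 in control FIPs, 127 ± 7.68 in APCs labelled transgenic and 120 ± 17 in control APCs (SD, n = 5 each). In FIPs of both genotypes the order continued with Anpep, Enpep, Agt, Agtr1a, Bdkrb1, Mme, Kng1, Agtr2 and Bdkrb2. In APCs of both genotypes it continued with Agt, Enpep, Anpep, Agtr1a, Mme, Bdkrb1, Bdkrb2 and Kng1, with Agtr2 listed at 0. Several neighbours in this order did not separate. Agtr2 overlapped both Kng1 and Bdkrb2 in FIPs of both genotypes, and Agt overlapped Enpep in APCs of both genotypes. Bdkrb1 overlapped Mme in control FIPs and in APCs labelled transgenic, and Bdkrb2 in APCs of both genotypes. Kng1 overlapped Agtr2 in APCs of both genotypes, where libraries were listed at 0. Ace and Agt overlapped in control APCs, Enpep and Agt as well as Mme and Kng1 in FIPs labelled transgenic, and Anpep and Agtr1a in APCs labelled transgenic. Antisense, intronic or pseudogene transcripts that overlap Ace, Agtr1a, Enpep and Anpep did not exceed 0.5 log2 CPM, though the library kit named in the labels does not record strand.

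**Figure D1:**
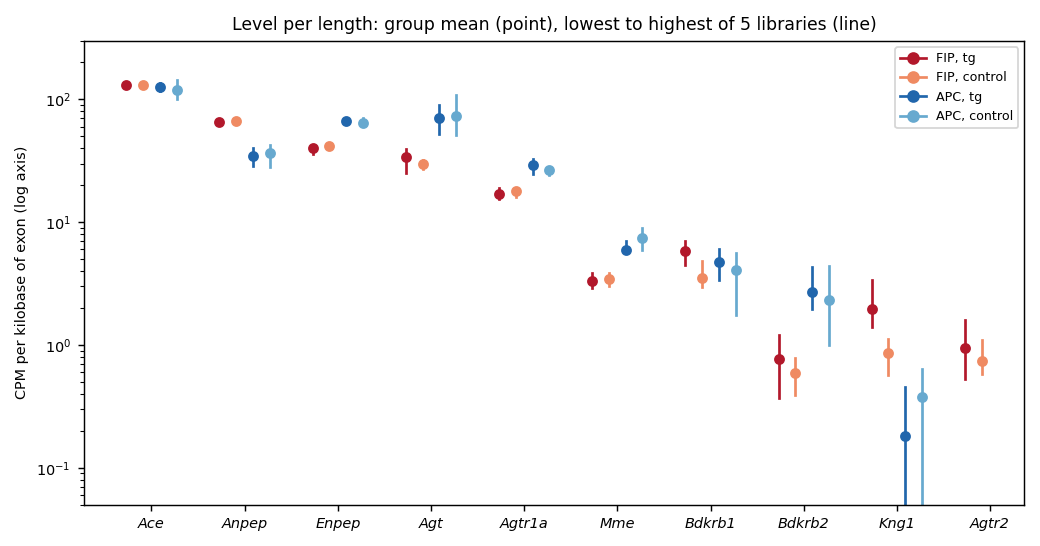
Level per length of the 10 genes in CPM per kilobase of exon on a log axis; points are group means and lines run from the lowest to the highest of 5 libraries, and Agtr2 in APCs is not drawn because it was listed at 0. Ace, at 120 to 131 CPM per kilobase on average, stands highest in each group, and the lines of Kng1 in APCs run off the axis because some libraries were listed at 0.

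The comparison of FIPs with APCs asked how the pathway was divided between the 2 progenitor populations. In both genotypes FIPs had less RNA of Agt, Agtr1a, Enpep, Mme and Bdkrb2 and more of Anpep, Kng1 and Agtr2. Agtr2 passed the filter on low values only through FIPs, where it is high, and is left out of the counts that follow. In limma 7 of the other 9 genes passed in mice labelled transgenic, where 41.7% of the 17435 tested genes were called, and 7 of 9 passed in control mice, where 47.5% were called. In each genotype 2 were higher and 5 lower; over all tested genes 22.7% were higher and 19% lower in mice labelled transgenic, and 19.6% higher and 27.9% lower in control mice. The median size of the difference was 0.86 log2 units over the 9 genes against 0.20 over all tested genes in mice labelled transgenic, and 0.86 against 0.22 in control mice. The FIP and APC libraries did not overlap for 7 of the 9 genes in mice labelled transgenic (29% of all tested genes, 16.6% higher and 12.4% lower) and 6 in control mice (31.4%, 14.6% higher and 16.7% lower). In bulk RNA, fewer cells expressing a gene and less RNA per cell cannot be told apart.

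**Figure D2:**
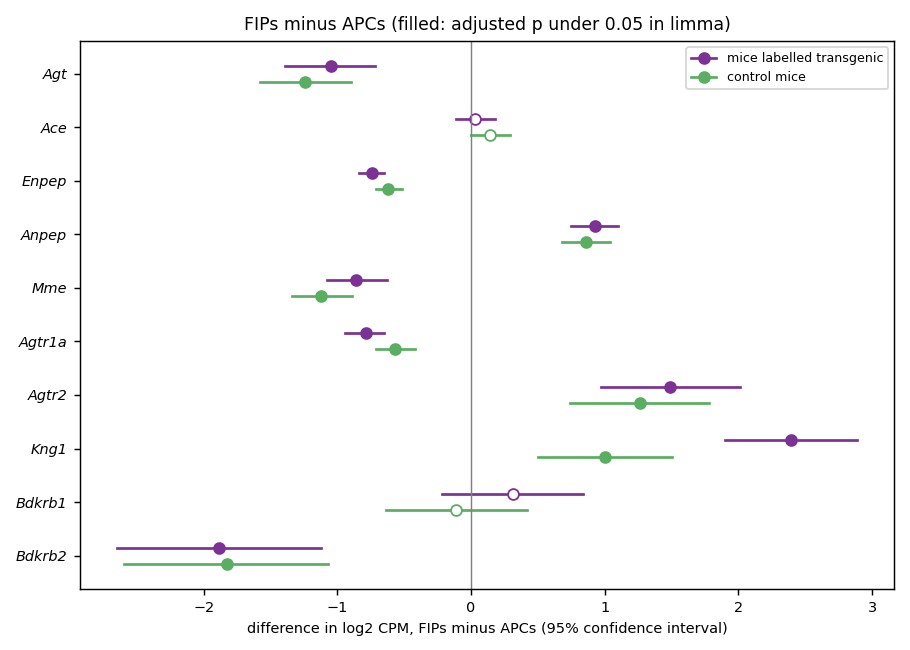
Difference in log2 CPM of each gene, FIPs minus APCs, with 95% confidence intervals from limma, in mice labelled transgenic and in control mice; filled points passed at an adjusted p of 0.05. Bdkrb2 lies farthest to the left, at −1.89 and −1.83. Kng1 lies farthest to the right in mice labelled transgenic, at 2.39, while Ace and Bdkrb1 lie near 0. Agtr2 was listed at 0 in all APCs and passed the filter on low values only through FIPs. Its position is therefore no fold change, and its interval and filled points are not taken as a test.

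Agt, the precursor of all angiotensin peptides, stood in mice labelled transgenic at 6.21, 5.97, 6.01, 6.16 and 5.58 log2 CPM in FIPs and at 7.42, 7.02, 6.63, 7.24 and 6.89 in APCs. In control mice it stood at 5.90, 5.81, 5.92, 5.79 and 5.67 in FIPs and at 7.68, 7.18, 6.97, 6.61 and 6.85 in APCs. All FIP libraries lay below all APC libraries in both genotypes, and the APC libraries were more spread. The difference was −1.05 log2 units (SE 0.16, limma adjusted p = 1.94e-05) in mice labelled transgenic and −1.24 (SE 0.16, adjusted p = 2.77e-06) in control mice. That is 2.08-fold and 2.36-fold lower in FIPs. The exact two-sided permutation p was 0.00794 in each, the smallest that 5 against 5 libraries can give. Agt lies on chromosome 8 between 124556534 and 124569706 (GRCm38).

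Kng1 encodes the kininogen from which bradykinin is released, and lies on chromosome 16 between 23057865 and 23082078. In mice labelled transgenic it stood at 2.39, 2.48, 2.18, 2.56 and 3.45 log2 CPM in FIPs and at 0.00, 0.56, 0.53, 0.00 and 0.00 in APCs. In control mice the values were 0.90, 1.69, 1.41, 1.39 and 1.86 in FIPs and 0.07, 0.00, 1.04, 0.61 and 0.53 in APCs. These are low levels, at an estimated 36.9 to 92.9 reads per library in FIPs labelled transgenic, 14 to 29.6 in control FIPs and at most 16.4 in any APC library. FIPs and APCs did not overlap in mice labelled transgenic, whereas the lowest control FIP library lay under the highest control APC library. Kng1 was higher in FIPs by 2.39 (SE 0.24, limma adjusted p = 5.74e-08; exact permutation p = 0.00794) in mice labelled transgenic and by 1.00 (SE 0.24, limma adjusted p = 0.00181; exact permutation p = 0.0159) in control mice. The call in control mice was lost with a pseudocount of 0.1 CPM (1.64, limma adjusted p = 0.119). Because values of 1 CPM or less are listed as 0 in 3 of 5 and 1 of 5 APC libraries, these sizes depend on that floor.

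Enpep, aminopeptidase A, is the enzyme that takes the first residue from angiotensin II, and lies on chromosome 3 between 129269175 and 129332720. In mice labelled transgenic it stood at 7.50, 7.61, 7.65, 7.57 and 7.41 log2 CPM in FIPs and at 8.33, 8.33, 8.21, 8.30 and 8.29 in APCs. Control mice had Enpep at 7.64, 7.54, 7.66, 7.60 and 7.68 in FIPs and at 8.37, 8.23, 8.16, 8.27 and 8.18 in APCs. The groups were tight and did not overlap. Enpep was lower in FIPs, with differences of −0.74 (SE 0.05, limma adjusted p = 2.93e-11) in mice labelled transgenic and −0.62 (SE 0.05, limma adjusted p = 6.57e-10) in control mice.

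Mme, or neprilysin, cleaves both angiotensins and bradykinin at the cell surface. It stood at 5.47, 5.06, 5.30, 5.26 and 5.14 log2 CPM in FIPs and at 6.33, 6.07, 6.02, 6.05 and 6.05 in APCs of mice labelled transgenic, and at 5.12, 5.19, 5.28, 5.41 and 5.48 in FIPs and 6.11, 6.16, 6.45, 6.65 and 6.70 in APCs of control mice. All FIP libraries lay below all APC libraries. Differences were −0.86 (SE 0.11, limma adjusted p = 1.33e-06) and −1.12 (SE 0.11, limma adjusted p = 3.61e-08).

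Anpep, aminopeptidase N, went the other way. It stood at 8.06, 8.16, 8.02, 8.02 and 8.17 log2 CPM in FIPs and at 6.90, 7.15, 7.24, 7.13 and 7.38 in APCs of mice labelled transgenic. Control mice had Anpep at 8.03, 8.13, 8.15, 8.12 and 8.04 in FIPs and at 6.87, 7.27, 7.45, 7.37 and 7.22 in APCs. Every FIP library was at 8.02 log2 CPM or above and every APC library at 7.45 or below. Anpep was 1.90-fold higher in FIPs of mice labelled transgenic (0.93 log2 units, SE 0.09, limma adjusted p = 1.96e-08) and 1.81-fold higher in control mice (0.86, SE 0.09, limma adjusted p = 6.96e-08).

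Ace, the converting enzyme that makes angiotensin II and breaks down bradykinin, lay between 9.37 and 9.49 log2 CPM in FIPs and between 9.29 and 9.50 in APCs of mice labelled transgenic. In control mice it lay between 9.35 and 9.51 in FIPs and between 9.06 and 9.58 in APCs. The groups overlapped in both genotypes. The difference did not pass, at 0.03 (95% confidence interval −0.11 to 0.18, limma adjusted p = 0.731) in mice labelled transgenic and 0.14 (0.00 to 0.29, adjusted p = 0.0998) in control mice. Replicate 1 of the control APCs held the highest Ace value, and without it the control difference was 0.21 and passed (limma adjusted p = 0.00458). Ace is also known as an endothelial gene, and Pecam1, which encodes the gated antigen CD31, averaged 6.37 log2 CPM in FIPs and 6.34 in APCs of mice labelled transgenic and 5.98 in FIPs and 6.61 in APCs of control mice. In control mice 11 of 12 endothelial genes were lower and 1 higher in FIPs, whereas in mice labelled transgenic 0 were lower and 1 was higher in limma. Among control APCs, replicate 1 had the highest Ace and the lowest endothelial sum (693 CPM), as had replicate 5 among APCs labelled transgenic (581 CPM). Among control FIPs, replicate 5 was lowest for both (614 CPM). The lowest sum of FIPs labelled transgenic (703 CPM, replicate 5) went with neither the highest nor the lowest Ace. The part of endothelial cells in the level of Ace was not tested.

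Among the receptors, Agtr1a, the AT1 receptor through which angiotensin II constricts vessels, stood at 5.71, 5.48, 5.64, 5.53 and 5.43 log2 CPM in FIPs and 6.11, 6.31, 6.51, 6.41 and 6.41 in APCs of mice labelled transgenic. In control mice it stood at 5.48, 5.62, 5.71, 5.71 and 5.67 in FIPs and 6.07, 6.17, 6.27, 6.27 and 6.24 in APCs. FIPs lay below APCs without overlap, with differences of −0.79 (SE 0.07, limma adjusted p = 7.67e-09) and −0.57 (SE 0.07, limma adjusted p = 1.1e-06). The related gene Agtr1b was listed at 0 in all 20 libraries, and only 1.13% of the 50-base windows of Agtr1a transcripts occur in Agtr1b.

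Agtr2, the AT2 receptor on the X chromosome, was listed at 0 in all 10 APC libraries and above 0 in all 10 FIP libraries. It stood at 0.93, 0.82, 1.06, 2.24 and 2.40 log2 CPM in FIPs labelled transgenic and at 1.10, 1.32, 0.94, 1.87 and 1.06 in control FIPs. Replicates 4 and 5 of the FIPs labelled transgenic and replicate 4 of the control FIPs were the high ones. An estimated 14 to 44.9 reads per library in FIPs labelled transgenic and 13 to 30.1 in control FIPs lay behind these values. Because only FIP libraries carried Agtr2 past the filter, its difference from APCs is given as these values, with no test and no fold.

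Bdkrb2, the constitutive bradykinin receptor, had the largest lower difference of the 10 genes in FIPs. In mice labelled transgenic it stood at 1.74, 0.48, 1.62, 2.20 and 1.08 log2 CPM in FIPs and at 3.23, 2.90, 3.14, 4.04 and 3.25 in APCs. In control mice it stood at 1.56, 1.32, 0.56, 1.48 and 0.56 in FIPs and at 4.07, 3.11, 3.37, 2.16 and 1.93 in APCs. The groups did not overlap, although control APCs ranged widely, with replicate 1 the highest and replicate 5 the lowest. The differences were −1.89 (SE 0.37, limma adjusted p = 0.000275) and −1.83 (SE 0.37, limma adjusted p = 0.000396), which is 3.70-fold and 3.56-fold lower in FIPs. Its neighbour Bdkrb1, the inducible kinin receptor that begins 7847 bases beyond its end on chromosome 12, overlapped between FIPs and APCs. It lay between 2.69 and 3.34 log2 CPM in FIPs and 2.29 and 3.13 in APCs of mice labelled transgenic, and between 2.09 and 2.80 in FIPs and 1.32 and 3.01 in APCs of control mice. Its differences of 0.31 (95% confidence interval −0.22 to 0.84, limma adjusted p = 0.359) and −0.11 (−0.64 to 0.42, limma adjusted p = 0.749) did not pass, and the second changed sign to 0.0585 with quantile normalization.

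**Figure D3:**
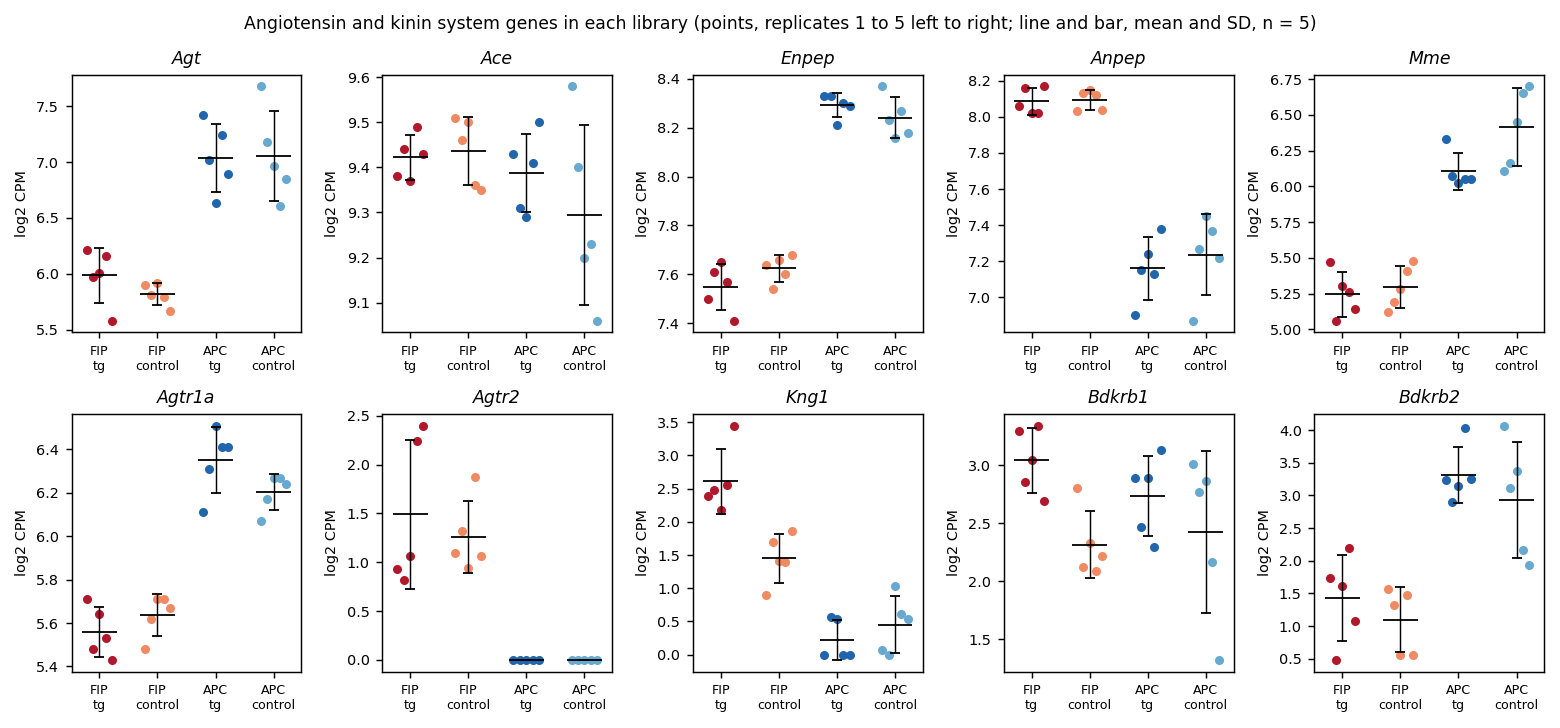
Level of each gene in log2 CPM in the 5 libraries of FIPs labelled transgenic, control FIPs, APCs labelled transgenic and control APCs; points are libraries and the line and bar give the mean and SD. Agt, Enpep, Mme, Agtr1a and Bdkrb2 lie lower in FIPs and Anpep, Kng1 and Agtr2 higher. Kng1 lies higher in FIPs labelled transgenic than in control FIPs, a call that was lost under several of the alternatives.

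Markers of other cells moved with this comparison too. The 12 mural cell genes summed to 478 to 608 CPM in FIPs and 796 to 930 in APCs of mice labelled transgenic, and to 462 to 501 in FIPs and 846 to 1180 in APCs of control mice. In limma 7 of the 12 were lower in FIPs of mice labelled transgenic and 12 of 12 in control mice, and none was at 0 throughout a group. The 5 preadipocyte genes summed to 1210 to 1390 CPM in FIPs and 1650 to 1850 in APCs of mice labelled transgenic, and to 1280 to 1430 in FIPs and 1700 to 1940 in APCs of control mice. In control mice 5 of 5 erythroid, 4 of 4 adipocyte, 7 of 8 mesothelial and 4 of 5 mast cell genes were lower in FIPs too; in mice labelled transgenic 3 of 5 erythroid, 1 of 4 adipocyte and 1 of 8 mesothelial genes were lower, and 1 mesothelial and 1 mast cell gene higher. The adipocyte genes summed to 290 to 534 CPM in FIPs and 431 to 775 in APCs of mice labelled transgenic, and to 450 to 531 in FIPs and 644 to 986 in APCs of control mice. Enpep, Anpep and Agtr1a are known in mural cells of other tissues, and Agt in adipocytes; the part of these cells in the levels was not tested.

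Within a group, the genes did not vary in 1 direction from library to library. Replicate 1 of the control APCs was the highest of its group for Agt, Ace, Enpep, Bdkrb1 and Bdkrb2 and the lowest for Agtr1a, Mme and Anpep. Replicate 5 of the FIPs labelled transgenic was the highest for Agtr2, Anpep and Kng1 and the lowest for Agt, Agtr1a, Enpep and Bdkrb1. That library also had the lowest sum of its group for all 7 marker lists compared by library, mural, endothelial, macrophage, erythroid, mesothelial, preadipocyte and adipocyte. Its macrophage and leukocyte sum was 189 CPM against 233 to 339 in the other 4, and its mural sum 478 against 534 to 608. Replicate 1 of the control APCs had the lowest sum of its group for 6 of the 7 lists, all but the mesothelial one. The part of these cells in the values of either library was not tested.

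Genotype was compared within FIPs to ask whether the pathway differed in progenitors of the Mural-Zfp423 line. Kng1 was the 1 gene of 10 that passed in limma, where 0.373% of all tested genes were called (0.241% higher and 0.132% lower), and it was higher in FIPs labelled transgenic. Its 5 values there, given above, ran from 2.18 to 3.45 log2 CPM, against 0.90 to 1.86 in control FIPs, with no overlap (2.89% of all tested genes, 2.19% higher and 0.694% lower). The difference was 1.16 log2 units, or 2.24-fold (SE 0.24, 95% confidence interval 0.66 to 1.66, limma adjusted p = 0.0355; exact permutation p = 0.00794). The call did not hold with a pseudocount of 1 CPM (limma adjusted p = 0.234) or 0.1 CPM (0.692), or with only FIP libraries in the fit (0.115). It was also lost without replicate 1, 2 or 4 of the FIPs labelled transgenic (limma adjusted p = 0.0646, 0.0525 and 0.0894) and without replicate 1, 2, 3 or 4 of the control FIPs (0.0766, 0.0528, 0.0889 and 0.088). Without replicate 5 of the FIPs labelled transgenic, the highest, the difference was 0.95 and passed (limma adjusted p = 0.0452). Marker lists differed by genotype in FIPs by medians of −0.48 for macrophages and leukocytes, 0.33 for endothelial cells, −0.32 for adipocytes and 0.19 for mural cells, with 0 of their genes called among the 65 that passed in all; their part in Kng1 was not tested.

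Kng2, the second mouse kininogen gene, lies 28382 bases from Kng1 on the same chromosome, and 17.2% of the 50-base windows of Kng1 transcripts also occur in Kng2, so reads may be split between them. It stood at 4.02, 4.28, 4.31, 4.77 and 5.09 log2 CPM in FIPs labelled transgenic and at 3.26, 3.63, 3.69, 3.88 and 4.26 in control FIPs. These groups overlapped, and the difference of 0.75 (95% confidence interval 0.26 to 1.24) did not pass (limma adjusted p = 0.197). In APCs Kng2 ran from 2.70 to 3.52 in libraries labelled transgenic and from 2.63 to 3.85 in controls (−0.27, limma adjusted p = 0.507). Kng2 was higher in FIPs than in APCs of mice labelled transgenic (1.42, limma adjusted p = 4.45e-05), while the difference of 0.40 in control mice did not pass (limma adjusted p = 0.174).

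**Figure D4:**
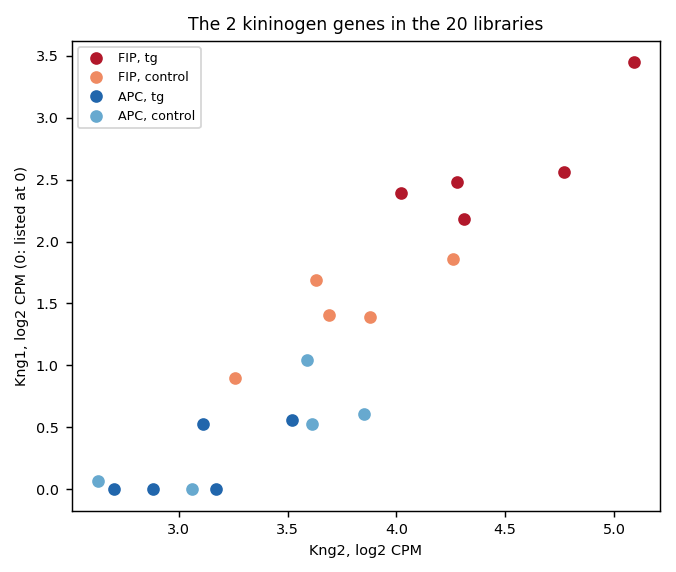
Kng1 against Kng2 in log2 CPM in each of the 20 libraries, coloured by group. The FIPs labelled transgenic lie above all other libraries for Kng1, at 2.18 to 3.45, while for Kng2 their range of 4.02 to 5.09 overlaps the highest control FIP library at 4.26, and 4 APC libraries are listed at 0 for Kng1.

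Bdkrb1, the receptor for shortened kinins, stood at 3.29, 2.85, 3.04, 3.34 and 2.69 log2 CPM in FIPs labelled transgenic and at 2.80, 2.12, 2.33, 2.09 and 2.22 in control FIPs. Only replicate 1 of the controls reached into the range of the FIPs labelled transgenic. The difference of 0.73 (95% confidence interval 0.20 to 1.26) did not pass in limma (adjusted p = 0.262), and the exact permutation p over its 10 libraries was 0.0159. The other 8 genes differed by between −0.08 and 0.33 log2 units, and none passed. The intervals were narrow for the peptidases, −0.16 to 0.13 for Ace, −0.17 to 0.02 for Enpep, −0.19 to 0.17 for Anpep and −0.27 to 0.17 for Mme. For Bdkrb2 the interval was −0.44 to 1.09.

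In APCs limma called 0 of the 9 genes with values above 0, against 8.01% of all tested genes (2.1% higher and 5.91% lower). The libraries of the 2 genotypes overlapped for each of the 9, as against 2.92% of all tested genes without overlap (1.5% higher and 1.42% lower). Mme and Agtr1a, 2 of the 9, had an unadjusted p under 0.05. Mme stood at 6.02 to 6.33 log2 CPM in APCs labelled transgenic and 6.11 to 6.70 in control APCs (−0.31, 95% confidence interval −0.53 to −0.09, limma adjusted p = 0.074). It passed without replicate 1 of the APCs labelled transgenic (limma adjusted p = 0.0277) or without replicate 1 or 2 of the control APCs (0.0212 and 0.035). Agtr1a stood at 6.11 to 6.51 in APCs labelled transgenic and 6.07 to 6.27 in control APCs (0.15, limma adjusted p = 0.189), and passed without replicate 1 of the APCs labelled transgenic (0.21, adjusted p = 0.0303). Agt differed by −0.02 (95% confidence interval −0.36 to 0.32) and Kng1 by −0.23 (−0.73 to 0.27). Marker genes moved with genotype in APCs: in limma all 6 gate and interstitial progenitor genes, 6 of 10 macrophage and leukocyte genes and 5 of 5 erythroid genes were lower in APCs labelled transgenic, and their part in the values of Mme and Agtr1a was not tested. With only the APC libraries in the fit, limma called 0 of all tested genes in place of 1396.

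Whether the genotype difference itself differed between FIPs and APCs was tested as an interaction. In limma 0 of the 9 genes passed, as did 0% of all tested genes, with 2 of 9 and 2388 of 17435 at an unadjusted p under 0.05. Kng1 came nearest, at 1.39 log2 units (SE 0.34, unadjusted p = 0.000508, adjusted p = 0.125), followed by Agtr1a at −0.23 (unadjusted p = 0.0312, adjusted p = 0.316). The higher Kng1 of FIPs labelled transgenic is thus not shown to be particular to FIPs.

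**Figure D5:**
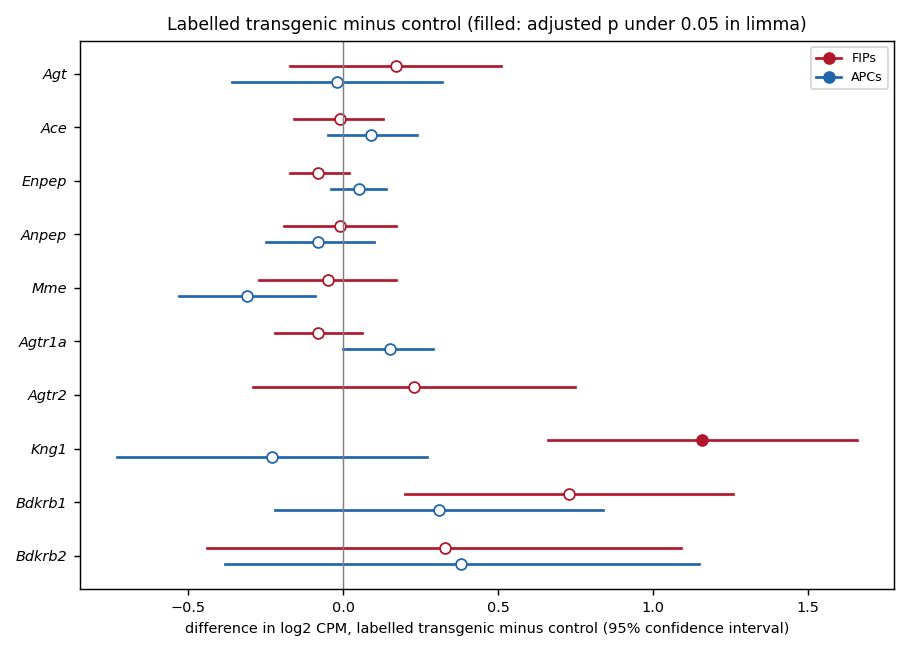
Difference in log2 CPM of each gene, labelled transgenic minus control, with 95% confidence intervals from limma, in FIPs and in APCs; filled points passed at an adjusted p of 0.05, and Agtr2 has no value in APCs. Kng1 in FIPs, at 1.16, is the only filled point.

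The rest of the pathway was counted over lists. Of 20 other renin-angiotensin genes 16 were tested; in FIPs against APCs 5 were higher and 3 lower in mice labelled transgenic, and 5 higher and 6 lower in control mice, with a median of 0.02 in each. The shares called were 50% and 68.8%, beside 41.7% and 47.5% of all tested genes. Any gene that passed the filter on low values through APCs alone was kept in these counts, but its call is not taken as a test. Arap1, which regulates trafficking of the AT1 receptor, was higher in FIPs (0.92 and 0.76), as was Prcp, a carboxypeptidase that cleaves angiotensin II (0.70 and 0.66). Rnpep, aminopeptidase B (−0.91 and −0.79), and Nr3c2, the mineralocorticoid receptor (−0.49 and −0.92), were lower. Between genotypes 0 of 16 passed in FIPs, and in APCs 1 was lower, Arap1 (−0.16, limma adjusted p = 0.0298).

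Of 16 other kallikrein-kinin genes and kinin-degrading peptidases 11 were tested, and Klkb1 and F12, the plasma activators of kininogen, were listed at 0 in every library. In FIPs against APCs 4 were higher and 1 lower in mice labelled transgenic, and 3 higher and 3 lower in control mice, which is 45.5% and 54.5% called, beside 41.7% and 47.5% of all tested genes. The lower genes of control mice include Cpn1 and Cpn2, named after their values were seen. They averaged 0.0 log2 CPM in FIPs of both genotypes, so APC libraries carried them past the filter on low values. They stay in these counts and in the share called, but their calls are not taken as tests. Gnas, a G protein gene that the list also held, was left out of these counts after its values were seen; it was lower in FIPs (−0.27 and −0.17). Xpnpep2, a membrane aminopeptidase that inactivates bradykinin, was higher in FIPs (1.02 in mice labelled transgenic and 0.88 in control mice), as were its relative Xpnpep1 (0.28 and 0.24) and Dpp4 (2.95 and 2.67), itself a marker of these cells. Klk1, tissue kallikrein, which frees kinins from kininogen, was 2.80 ± 0.14 log2 CPM in control FIPs and 4.05 ± 0.75 in control APCs (SD, n = 5 each; −1.25, limma adjusted p = 0.000994). In mice labelled transgenic its difference of −0.51 did not pass (limma adjusted p = 0.149). In APCs labelled transgenic 2 were lower than in control APCs, and in FIPs 0 of 11 passed. The 2 were Dpp4 (−0.41, limma adjusted p = 0.0338) and Cpn1, a carboxypeptidase N subunit named here after its values were seen. Cpn1 averaged 0.03 log2 CPM in APCs labelled transgenic and 0.73 in control APCs, near the floor. It was higher in control APCs and passed the filter through APC libraries, so its difference of −0.70 is not taken as a test.

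All 26 signalling genes listed downstream of the AT1 and bradykinin receptors were tested. In FIPs against APCs 7 were higher and 9 lower in mice labelled transgenic, and 5 higher and 7 lower in control mice, which is 61.5% and 46.2% called, beside 41.7% and 47.5% of all tested genes. Itpr3, a calcium release channel opened by an inositol phosphate, was higher in FIPs by 2.08 and 1.85, and the kinase gene Prkca by 0.48 and 0.64. Rgs3, which curbs G protein signalling, was lower in FIPs (−0.50 in mice labelled transgenic and −0.61 in control mice), as was the phospholipase gene Plcb1 (−0.46 and −0.75). Rgs2, another such regulator, was higher in mice labelled transgenic (0.63, limma adjusted p = 0.0335) and differed by 0.10 in control mice (adjusted p = 0.742). The pericyte marker Rgs5 was lower in control mice (−0.64, limma adjusted p = 0.000154) and differed by 0.06 in mice labelled transgenic (adjusted p = 0.74). Between genotypes 0 of 26 passed in FIPs, and in APCs 1 was lower, Itpr3 (−0.38, limma adjusted p = 0.0299). The medians of these lists were within 0.1 log2 units of the medians over all tested genes in every comparison of FIPs with APCs.

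Genes most alike in pattern were those with the smallest root mean square difference from a member over the 20 libraries, each gene centred on its own mean; libraries of a mouse pool may share animals. For Agt these were Angpt1 (0.13 log2 units), Pald1 (0.16) and Slc24a3 (0.17), where the profile of Agt itself spread by 0.63. For Enpep they were Eps8 (0.07), Enpp2 and Adcy6 (0.09 each). For Agtr1a they were Arhgef6 (0.08), Spry1 (0.08) and the surface peptidase gene Fap (0.10). For Mme they were Fah (0.11), the adipogenic regulator Pparg (0.15) and Sort1 (0.15), and for Anpep Adcy7 (0.09), Prss23 and Pamr1 (0.11 each). The matches of Bdkrb1 and Bdkrb2 were looser, at 0.34 or more and 0.41 or more.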

How the data were processed

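Polyadenylated RNA of 20 libraries, 5 per group, was measured. The deposited values are log2 CPM to 2 decimals for 54304 genes, with 1 CPM or less listed as 0. Per the submitters' processing notes, Trim Galore 0.4.1, HISAT2 2.0.1, featureCounts 1.4.6 and DESeq2 1.6.3 were used, with builds GRCm38 and mm10. Which step each served, and how strand and annotation were set, the labels do not say.

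The lowest values lay on whole reads (within the rounding of the file) for 71.3 to 81.2% of them, too few for a count test. The 17435 genes above 0 in at least 5 libraries were fitted in limma 3.58.1 (R 4.3.3) with 1 mean per group over all libraries, a trended prior variance (16 residual degrees of freedom) and p-values adjusted by Benjamini-Hochberg over all tested genes (threshold 0.05), after tests on simulated data. Libraries were taken as independent. P-values measure the spread between pools of mice. The members were given by name, and the lists and alternatives were chosen with earlier results of these data known. All members are named, as are, per list and comparison, the up to 4 passing genes that differed most, if the higher group averaged 2 log2 CPM or more (genes of 2 lists are given once), plus Dpp4, Kng2, Agtr1b, Ren1 and Zfp423; 1 further gene of that rule is not reported here. Positions and exon lengths came from GENCODE M21 (GRCm38), which matched 54276 genes, and promoters from RefSeq (GRCm38.p6). Alternatives were 2 pseudocounts, 2 filters, 2 scalings, array weights, a robust variance, a fit to the compared groups alone, a block on replicate number, and each library of the groups compared left out.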

Additional observations from a re-analysis of the deposited data

Results flagged for a closer look

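Mme was highest in replicate 1 of the APCs labelled transgenic, at 6.33 log2 CPM, against 6.02 to 6.07 in the other 4 libraries of that group. The gap to the nearest library was 0.839 of the range of the group, above the limit of 0.71 for 5 libraries. This was the 1 group that stood out of 38 examined, and chance marks about 5% of groups. Replicate 1 of these APCs was also the highest of its group in 6 of 7 marker sums, all but the mural one, among them the erythroid sum (1040 CPM against 454 to 600 in the others) and the adipocyte sum (775 CPM against 431 to 510). The part of those cells in the value was not tested.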

How the results depend on the processing

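Agtr2 left aside, the 14 called differences between FIPs and APCs were refitted 278 times over all alternatives that gave a value, and 277 passed in the same direction; the exception was Kng1 in control mice with a pseudocount of 0.1 CPM. The member count there, Agtr2 included, was 8 to 9 with 1 library left out in control mice and 8 in mice labelled transgenic. Over all 17435 tested genes the counts were then 7599 to 8246 in control mice and 6682 to 7125 in mice labelled transgenic. Agtr2 passed the filter only through FIPs, so its place in the member count is no test of it. In FIPs by genotype, the 1 member called became 0 with a pseudocount of 1 CPM (Kng1 adjusted p = 0.234) or 0.1 CPM (0.692), with no filter (0.0516), with only the groups compared (0.115), and with a filter at a mean of 2 log2 CPM, which drops Kng1; it was 0 to 1 with 1 library left out. Over all tested genes, 65 were called in FIPs, 271 with array weights, 36 with only the groups compared, 101 with the replicate block, and 9 to 125 with 1 library left out. In APCs 1396 were called, 823 with a pseudocount of 0.1 CPM, 812 with no filter, 2253 with array weights, 0 with only the groups compared (3602 at an unadjusted p under 0.05), and 181 to 2849 with 1 library left out; members called were 1 (Mme) with array weights and 0 to 2 with 1 library left out. For the interaction, 0 became 3 with a pseudocount of 1 CPM, 1 with quantile normalization, 176 with array weights and 0 to 331 with 1 library left out, with 0 members in each. The causes were not tested. Ace in control mice passed with array weights (0.16, adjusted p = 0.0247). Differences near 0 changed sign: Ace, FIPs against APCs, in mice labelled transgenic (−0.014 with median centring); Bdkrb1, FIPs against APCs, in control mice (0.0585 with quantile normalization; −0.39 to 0.0345 with 1 library left out); Ace in FIPs by genotype (0.0149 with quantile normalization; −0.0355 to 0.0045 with 1 left out); Anpep in FIPs (−0.029 to 0.0085 with 1 left out); Agt in APCs (0.047 with median centring; −0.13 to 0.14 with 1 left out); and in the interaction Anpep (−0.019 with median centring) and Bdkrb2 (−0.34 to 0.19 with 1 left out). Median centring turned the share of higher calls to 44.3% from 54.5% in FIPs against APCs of mice labelled transgenic, to 51.9% from 64.6% by genotype in FIPs and to 48.5% from 26.2% in APCs; quantile normalization gave 53.6% in FIPs and 46.3% in APCs. Same-numbered FIP and APC libraries of a genotype, which may share mice, deviated together at r = 0.0978 to 0.467 in mice labelled transgenic (above 0.1 in 4 of 5) and 0.049 to 0.377 in control mice (3 of 5), with 3 of 5 best matched to their own number in each; across genotypes r was above 0.1 in 1 of 5 FIP and 2 of 5 APC pairs. Not every pair passed 0.1, so the numbers were not taken as pairs. The replicate block changed no member call, but it joined same-numbered libraries of both genotypes. It therefore did not test whether mice shared between FIP and APC libraries matter. Depth limits Kng1, Agtr2 and Bdkrb2, which rest on few reads per library (in FIPs 9.97 to 92.9 estimated).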

Other observations

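Relatives of the peptidases Enpep, Anpep and Mme were counted in the same way. Of 16 genes of these families and related surface peptidases 13 were tested; in FIPs against APCs 3 were higher and 4 lower in mice labelled transgenic, and 3 higher and 5 lower in control mice, with medians of 0.01 and −0.01. The shares called, 53.8% and 61.5%, stand beside 41.7% and 47.5% of all tested genes. Lvrn, a membrane aminopeptidase related to Enpep, was 5.37 ± 0.11 log2 CPM in FIPs and 7.16 ± 0.25 in APCs of mice labelled transgenic (SD, n = 5 each; −1.78, limma adjusted p = 1.22e-08), and 5.0 ± 0.24 in FIPs and 6.58 ± 0.44 in APCs of control mice (−1.58, limma adjusted p = 8.05e-08). Fap, a surface protease of activated fibroblasts, was lower in FIPs too (−0.80 in mice labelled transgenic and −0.65 in control mice). In control mice Trhde, which degrades thyrotropin-releasing hormone, was lower in FIPs as well (−0.94, limma adjusted p = 0.00716), and in mice labelled transgenic its −0.66 did not pass (adjusted p = 0.0572). By genotype, Lvrn was higher in APCs labelled transgenic (0.57, limma adjusted p = 0.0382). In FIPs 1 relative was lower: Ecel1, at 0.45 ± 0.44 in FIPs labelled transgenic and 1.61 ± 0.39 in control FIPs (−1.17, limma adjusted p = 0.00759). It is named here after its values were seen, and lay near the floor of 1 CPM. Ecel1 was also counted above among the genes higher in FIPs of control mice. It averaged 0.0 log2 CPM in APCs labelled transgenic and 0.01 in control APCs, so FIP libraries carried it past the filter on low values. Its call against APCs is therefore not taken as a test.

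Ren1 and Cma1 were at or near the floor. Ren1, which encodes renin, was listed at 0 in all FIP libraries and in 4 of 5 APC libraries of each genotype. Cma1, the mast cell chymase that can make angiotensin II without Ace, averaged 0.36 log2 CPM in FIPs and 0.37 in APCs of mice labelled transgenic (−0.01, limma adjusted p = 0.978). Its control means were 0.18 in FIPs against 1.05 in APCs, a difference of −0.87 (limma adjusted p = 0.00293). The 5 mast cell genes, Cma1 itself among them, summed to 11.6 to 22.6 CPM in control FIPs and 20.8 to 31.5 CPM in control APCs. Kit stood highest of the 5, at a mean of 3.65 log2 CPM in control FIPs and 3.86 in control APCs. Mcpt4 came next in control APCs, at 1.51. The part of mast cells in the Cma1 difference was not tested.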
